A study of Mus musculus with 24 samples.

Results

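The 10 genes described here code for the keratins and the cell junctions of simple epithelia: the keratins Krt8, Krt18, Krt19 and Krt7, the cadherin Cdh1, the adhesion molecule Epcam, the claudins Cldn6 and Cldn7, the junction protein Jup and the desmosome protein Dsp. They were chosen by name from the 24016 genes of the deposited gene table, with their RNA values and the allele share of Jup already known, so those values are given as a description. All 10 have a row in the table.

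The study used 16.7 Tsix +/TST, a female hybrid line of mouse embryonic stem cells, in which the files separate reads of a mus and a cas allele. A line with G9a deleted in that parent (KO) was set beside the parent itself (WT), so both carry the Tsix TST allele. Day 10 cells had been taken off LIF, kept in suspension for 4 days and then grown on gelatin for another 6, and day 0 cells were undifferentiated. Total RNA after removal of ribosomal RNA was measured in 12 libraries, 3 for each of day 10 KO, day 10 WT, day 0 KO and day 0 WT. H3K9 acetylation (H3K9ac), a histone mark found at active promoters, was measured in 1 sample of each of those groups. The labels number the libraries by donor without saying that cultures or KO clones were separate, so p-values measure only the spread between these libraries.

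Keratins form obligate pairs of a type I and a type II chain, and the pair of Krt8 and Krt18 is the first to appear in the mouse embryo, in trophectoderm. Cdh1 joins neighbouring cells at adherens junctions and is also made by naive embryonic stem cells. Desmosomes tie the keratin filaments of neighbouring cells together through Dsp, and tight junctions seal the sheet through claudins.

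G9a is the product of Ehmt2, which serves as the check of the labels. In scaled reads (the authors brought every library to the same total) it had 499.82, 758.44 and 628.33 in day 10 KO and 1296.92, 1358.93 and 718.57 in day 10 WT, and these groups overlapped. They were 557.31, 440.92 and 375.39 in day 0 KO and 986.77, 1102.26 and 1375.06 in day 0 WT, with every KO library below every WT library. The values over the whole gene remained above 0 in KO, and the deleted stretch is not given in the sources used here. Day 0 KO replicates 2 and 3 and day 0 WT replicate 3 held 21087157 to 30527844 reads, and the other 9 libraries 2081129 to 4220140. Rn45s, the ribosomal RNA precursor, took 0.115 to 0.129% of the reads in those 3 deep libraries and 14.8 to 25.1% in the other 9, and it is part of the scaled total. Day 0 KO replicate 1 and day 10 WT replicate 3 stood apart with olfactory and vomeronasal receptor reads of 1072 and 1093 CPM, against 31.1 to 377 CPM in the other 10 libraries, Rn45s left out of the total. Summed fibroblast marker reads were 2481, 784 and 740 scaled reads in day 0 KO and 7342, 1399 and 956 in day 0 WT.

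The promoters of 5 genes are shown first, which stand for the keratins, tight junctions, desmosomes and surface adhesion molecules. The windows run from 250 bases before to 50 bases after the start of the gene in RefSeq, build GRCm38.p6, and are written 5′ to 3′ on the strand of the gene. Capitals mark the E-box CAGGTG or its reverse complement CACCTG, the element bound by the Snail and Zeb repressors of epithelial genes. Krt8 (chr15:102004293-102004592, minus strand) and Krt18 (chr15:102027966-102028265, plus strand) lie beside each other, Cldn6 (chr17:23679115-23679414, plus strand) and Dsp (chr13:38151044-38151343, plus strand) stand for the tight junction and the desmosome, and Epcam (chr17:87635729-87636028, plus strand) is shown as a gene whose day 10 and day 0 levels overlapped.
Krt8: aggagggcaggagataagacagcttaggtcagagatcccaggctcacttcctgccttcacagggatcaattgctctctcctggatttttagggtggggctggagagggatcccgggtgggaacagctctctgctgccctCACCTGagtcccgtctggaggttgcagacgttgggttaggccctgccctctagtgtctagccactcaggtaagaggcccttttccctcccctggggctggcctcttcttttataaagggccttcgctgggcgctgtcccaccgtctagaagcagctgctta
Krt18: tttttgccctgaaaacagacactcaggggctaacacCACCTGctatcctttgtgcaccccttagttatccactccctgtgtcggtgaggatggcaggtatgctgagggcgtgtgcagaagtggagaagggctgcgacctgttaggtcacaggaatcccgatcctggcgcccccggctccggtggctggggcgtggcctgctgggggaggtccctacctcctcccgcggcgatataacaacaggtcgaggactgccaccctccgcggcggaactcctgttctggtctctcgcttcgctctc
Cldn6: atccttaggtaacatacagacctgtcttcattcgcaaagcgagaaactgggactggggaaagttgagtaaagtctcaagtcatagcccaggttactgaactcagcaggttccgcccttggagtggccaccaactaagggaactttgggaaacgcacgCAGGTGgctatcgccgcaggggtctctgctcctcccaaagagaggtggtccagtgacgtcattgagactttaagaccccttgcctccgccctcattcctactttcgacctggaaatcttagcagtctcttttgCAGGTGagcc
Dsp: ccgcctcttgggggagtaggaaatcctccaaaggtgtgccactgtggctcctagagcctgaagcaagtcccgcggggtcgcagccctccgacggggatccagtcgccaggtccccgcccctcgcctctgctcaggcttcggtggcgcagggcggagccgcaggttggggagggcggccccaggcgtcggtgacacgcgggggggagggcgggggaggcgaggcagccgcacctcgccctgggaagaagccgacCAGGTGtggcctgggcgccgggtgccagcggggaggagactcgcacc
Epcam: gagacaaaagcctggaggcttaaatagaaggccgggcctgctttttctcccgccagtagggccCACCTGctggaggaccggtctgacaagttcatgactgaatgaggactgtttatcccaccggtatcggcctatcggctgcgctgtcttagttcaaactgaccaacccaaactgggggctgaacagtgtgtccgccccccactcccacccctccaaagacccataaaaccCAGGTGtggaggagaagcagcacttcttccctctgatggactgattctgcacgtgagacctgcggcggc

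RefSeq windows were matched for 8 of the 10 genes, and Krt19 and Cdh1 are named only. The E-box stood in 7 of those 8 genes, and in 7 of their 9 windows, against 20.2% of all 32851 windows of this length. Counting the start of the gene as 0, its first base lay at -111 in Krt8, at -214 in Krt18, at -93 and 40 in Cldn6, at 3 in Dsp and at -187 and -19 in Epcam. Jup had none, and Cldn7 had 2 in the window of its second listed start and none in that of its first. Krt8, whose days differed most, and Epcam, whose days overlapped, both held it. The GC box GGGCGG or CCGCCC stood in 6 of the 8 genes, and in 6 of their 9 windows, against 35.7% of all windows. Krt8 was the only window with TATAAA or TTTATA, 2 overlapping matches, found in 13.6% of all windows, and no window held TGANTCA, found in 7.81%. No other matches overlapped. A match is a description of the letters, and binding was not measured.

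Krt8, the type II keratin of simple epithelia (chr15:101827142-101834773 in mm9, the build of the deposited files), was among the lowest of the 10 genes per length at day 0 and second to its partner Krt18 at day 10. Krt8 had 2399.93, 3641.58 and 3484.13 scaled reads in day 10 KO and 15.57, 19.86 and 16.07 in day 0 KO. It had 4353.95, 3238.78 and 1589.48 scaled reads in day 10 WT and 45.98, 50.10 and 46.39 in day 0 WT. The days were fully separate in both lines, and the day 10 means were 185 times the day 0 means in KO and 64.5 times in WT. On the scale of log2(scaled reads + 1), the differences between the days were 7.43 (SE 0.36) in KO and 5.86 (SE 0.36) in WT.

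Krt18, the type I partner (chr15:101858647-101862457, next to Krt8), had 3296.43, 4884.65 and 3632.45 scaled reads in day 10 KO and 9.34, 46.89 and 53.16 in day 0 KO. In WT it had 7312.17, 4774.78 and 1523.37 at day 10 and 31.83, 70.98 and 83.97 at day 0. Every day 10 library was above every day 0 library, with log2 differences of 7.02 in KO and 6.01 in WT (SE 0.64 in each). Per kb of gene span, introns included, the Krt18 level was 1.92 to 3.36 times the Krt8 level in the 6 day 10 libraries and 1.20 to 6.63 times in the 6 day 0 libraries.

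Krt19 (chr11:100002126-100007233), a type I keratin that pairs with type II chains in simple epithelia, had 460.15, 807.72 and 542.04 scaled reads in day 10 KO and 28.02, 12.05 and 13.19 in day 0 KO. It had 1905.24, 1406.29 and 419.65 in day 10 WT and 38.90, 37.58 and 46.39 in day 0 WT. Krt7 (chr15:101242834-101258237), a type II keratin of simple and ductal epithelia, had 345.11, 438.09 and 291.24 in day 10 KO and 12.45, 8.14 and 5.77 in day 0 KO. Day 10 was above day 0 in every library of KO for both keratins. Krt7 had 1235.16, 317.08 and 250.06 in day 10 WT and 21.22, 50.10 and 3.42 in day 0 WT, again without overlap. The log2 differences were 5.07 in KO and 4.64 in WT for Krt19 (SE 0.52) and 5.23 in KO and 4.75 in WT for Krt7 (SE 0.78).

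**Figure D1:**
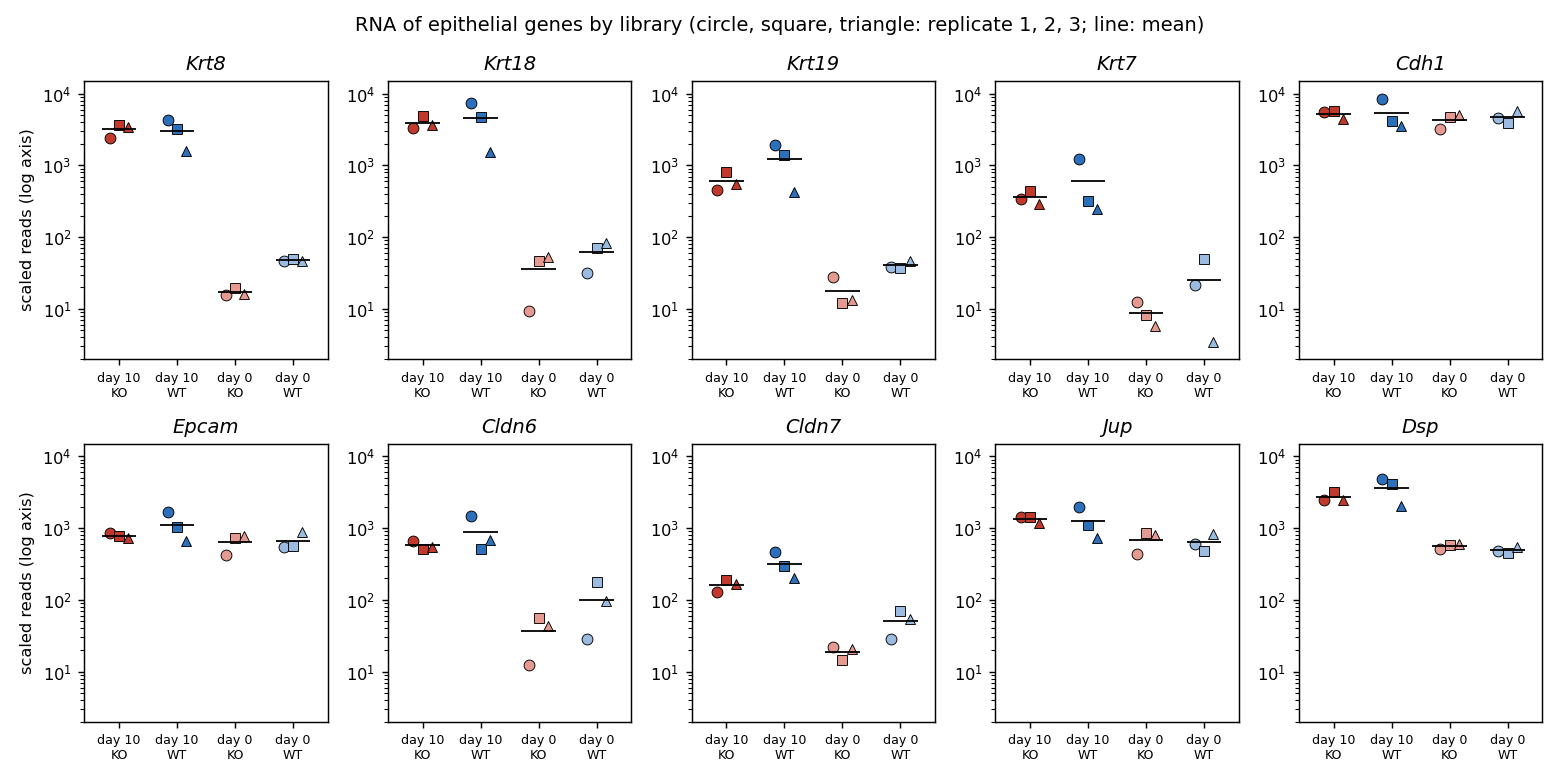
Scaled reads of the 10 genes in each of the 12 RNA libraries, on a log axis, with day 10 KO, day 10 WT, day 0 KO and day 0 WT from left to right; symbols are replicates and lines are group means. The day 10 means of the 4 keratins and Cldn6 lie furthest above their day 0 means, Cdh1 and Epcam lie at like levels on both days, and day 10 WT replicate 1 is the highest of its group in all 10 panels.

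Cdh1, E-cadherin of the adherens junction (chr8:109127268-109194146), was already high at day 0. It had 5636.86, 5722.49 and 4468.43 scaled reads in day 10 KO and 3253.54, 4708.46 and 4980.17 in day 0 KO. It had 8374.41, 4161.20 and 3489.38 in day 10 WT and 4626.13, 3924.72 and 5733.91 in day 0 WT. The days overlapped in both lines, with log2 differences of 0.31 in KO and 0.07 in WT (SE 0.32 in each). Epcam (chr17:88035319-88050467), a surface molecule of epithelia that stem cells also carry, had 848.90, 788.55 and 717.32 in day 10 KO and 417.20, 722.60 and 767.26 in day 0 KO. It had 1664.38, 1043.90 and 658.21 in day 10 WT and 548.20, 567.83 and 870.40 in day 0 WT. These groups overlapped too, with differences of 0.35 in KO and 0.69 in WT (SE 0.36).

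The claudins of the tight junction strand were higher at day 10, as the keratins were. Cldn6 (chr17:23816332-23819414), known from embryonic epithelia, had 662.46, 514.75 and 542.04 scaled reads in day 10 KO and 12.45, 56.01 and 43.68 in day 0 KO. It had 1460.58, 514.75 and 692.70 in day 10 WT and 28.29, 175.36 and 95.92 in day 0 WT, so neither line overlapped between the days. Cldn7 (chr11:69778281-69781388) had 126.94, 186.19 and 167.20 in day 10 KO and 21.79, 14.65 and 20.60 in day 0 KO. It had 463.19, 292.38 and 201.20 in day 10 WT and 28.29, 70.98 and 54.36 in day 0 WT. All its day 10 libraries were above its day 0 libraries. The log2 differences were 4.14 in KO and 3.34 in WT for Cldn6 (SE 0.64) and 3.01 in KO and 2.63 in WT for Cldn7 (SE 0.46).

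Dsp, desmoplakin (chr13:38243163-38290446), had 2503.07, 3181.60 and 2478.26 scaled reads in day 10 KO and 516.83, 580.29 and 597.08 in day 0 KO. It had 4764.64, 4132.38 and 2043.62 in day 10 WT and 481.00, 446.75 and 544.22 in day 0 WT. Day 10 was 4.82 times day 0 by the means in KO and 7.43 times in WT, with no overlap in either line. Jup, plakoglobin (chr11:100230170-100259104), which links cadherins to filaments in desmosomes and adherens junctions, had 1443.92, 1442.94 and 1181.15 in day 10 KO and 432.77, 845.69 and 797.75 in day 0 KO. It had 1976.26, 1089.20 and 738.69 in day 10 WT and 604.79, 480.15 and 827.99 in day 0 WT. Its days were separate in KO and overlapped in WT, with log2 differences of 1.02 in KO and 0.91 in WT (SE 0.37).

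All 10 genes entered the fit over the 20624 genes above 1 scaled read in at least 3 libraries. In that limma fit (Benjamini-Hochberg over all genes, 0.05) 7 of the 10 passed as higher at day 10 in KO, where 2.43% of all genes passed as higher, and 7 passed in WT, where 2.02% did. They were the 4 keratins, Cldn6, Cldn7 and Dsp in each line, and since the names were picked with these values known, nothing is read from the counts. By libraries alone, 8 genes did not overlap between the days in KO and 7 in WT, against 8.93% and 6.63% of all genes with day 10 wholly higher. The median log2 difference over the 10 genes was 3.57 in KO and 3.07 in WT, beside -0.68 and -0.20 over all genes tested. The day 10 libraries are all shallow. The only shallow day 0 KO library, replicate 1, held 5 reads of Krt8, 3 of Krt18 and 4 of Cldn6, and also held receptor reads. Against the shallow day 0 libraries alone, 1 KO and 2 WT, the KO differences were 7.56 for Krt8, 8.55 for Krt18 and 5.41 for Cldn6, and the WT differences were 5.85 for Krt8 and 3.78 for Krt7. Cldn7 in KO, at 2.80, then no longer passed (limma adjusted p = 0.0695). In these bulk samples a change in the number of cells of a type and a change in RNA per cell cannot be told apart.

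Per kb of gene span the order of the 10 levels differed between the days. Day 10 KO had Krt18 first (1034 ± 220 scaled reads per kb, SD, n = 3), then Krt8 (416 ± 88.6), Cldn6 (186 ± 25.5) and Krt19 (118 ± 35.6), and none of these neighbours overlapped. Cdh1, Dsp, Epcam, Cldn7 and Jup followed with overlapping ranges, and Krt7 was last (23.3 ± 4.82). Day 10 WT had the same first 4, each overlapping the next, from Krt18 (1191 ± 762) to Krt19 (244 ± 148). Day 0 KO began with Cdh1 (64.5 ± 13.9) and Epcam (42.0 ± 12.6), whose ranges overlapped, and ended with Krt8 (2.25 ± 0.307) and Krt7 (0.571 ± 0.220). Day 0 WT also began with Cdh1 (71.2 ± 13.6) and Epcam (43.7 ± 11.9), which did not overlap, and ended with Krt8 (6.22 ± 0.297) and Krt7 (1.62 ± 1.53).

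The day 10 WT libraries differed among themselves more than the day 10 KO libraries did. Replicate 1 of day 10 WT was the highest of its 3 for all 10 genes, and replicate 3 the lowest for 9, with replicate 2 lowest for Cldn6. Summed over the 10 genes, the level was 1791, 2428 and 1972 scaled reads per kb in day 10 KO and 3970, 2491 and 1160 in day 10 WT. Replicate 3 of day 10 WT is also the library with the receptor reads, and its summed naive stem cell markers, 3182 scaled reads, were the lowest of day 10. Across the 12 libraries, the closest pair of the 10 genes was Krt8 with Krt18 (Pearson r = 0.98 of log2 values) and the most distant Krt7 with Cdh1 (r = 0.30). The genes outside the 10 with the pattern most like Krt8 were Cdc42ep1, Ptk7 and Wnt4 (r = 0.98 to 0.99), and those most like Cldn6 were Shc1, Dlx3 and Arl4c (r = 0.97 to 0.99). Lasp1, Lrfn1 and Etv3 were the most like Cdh1 (r = 0.89 to 0.91). These r were taken over 12 libraries and 10473 genes with a mean over 100 scaled reads, and the libraries share groups and depth.

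KO and WT were then set side by side on each day. At day 10, Cldn7 was the only gene of the 10 without overlap, 126.94 to 186.19 scaled reads in KO and 201.20 to 463.19 in WT, and 12.6% of all genes were likewise wholly lower in KO. Its log2 difference was -0.92 (SE 0.46), that of Krt19 was -0.83 (SE 0.52), and those of Krt8 and Krt18 were 0.15 (SE 0.36) and 0.05 (SE 0.64). At day 0, Krt8, Krt19 and Cldn7 were wholly lower in KO, as were 4.98% of all genes, with log2 differences of -1.42 (SE 0.36), -1.25 (SE 0.52) and -1.31 (SE 0.46). Krt18, Cldn6 and Krt7 were lower by the mean but overlapped, at -0.97, -1.29 and -0.86, while Cdh1, Epcam, Jup and Dsp differed by -0.15 to 0.20. The median over the 10 genes was -0.36 at day 10 and -0.92 at day 0, beside -0.26 and 0.17 over all genes.

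None of the 10 differences between KO and WT passed limma's adjusted test on either day, and neither did any other gene (0% of 20624). With a pseudocount of 0.1 limma called 111 genes at day 10, of which 7 were higher in KO, and with a depth term it called 7, none of them among the 10. At an unadjusted p under 0.05, 2462 genes and none of the 10 stood out at day 10, and 788 genes, Krt8, Krt19 and Cldn7 among them, at day 0. edgeR on the recovered whole reads also called 0 genes on either day, with 2074 genes at day 10 and 601 at day 0 under the unadjusted 0.05, and DESeq2 called 558 genes at day 10 and 15 at day 0 with none of the 10 among them. The test of whether the change over 10 days differed between the lines gave 0 calls by limma, with 1795 genes under the unadjusted 0.05, 0 by edgeR and 144 by DESeq2, again none of the 10. By limma Krt8 was among those under the unadjusted 0.05. The Krt8 value was 1.57 (SE 0.51), with a limma adjusted p of 0.547. Within the deep day 0 libraries, 2 KO and 1 WT, the Krt8 difference was -1.33, and within the shallow ones, 1 KO and 2 WT, it was -1.56. For Krt7 those differences were 0.83 and -1.32. Without the 2 libraries that held receptor reads, the differences of all 10 genes at day 10 were below 0, with a median of -0.66 beside -0.09 over all genes. Krt19 was at -1.48 (limma adjusted p = 0.181), and 4 of the 10 were among 2024 genes under limma's unadjusted 0.05. That setting leaves out day 10 WT replicate 3, the lowest of its group for 9 of the 10 genes. At day 0 it gave Krt8 at -1.36 (limma adjusted p = 0.236), Krt18 at -0.20 and Cldn6 at -0.65. The day 0 median over the 10 genes was then -0.43, beside 0.10 over all genes, with Cdh1, Epcam, Jup and Dsp above 0. Without day 10 WT replicate 1 the day 10 median over the 10 genes was 0.13, beside -0.37 over all genes.

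**Figure D2:**
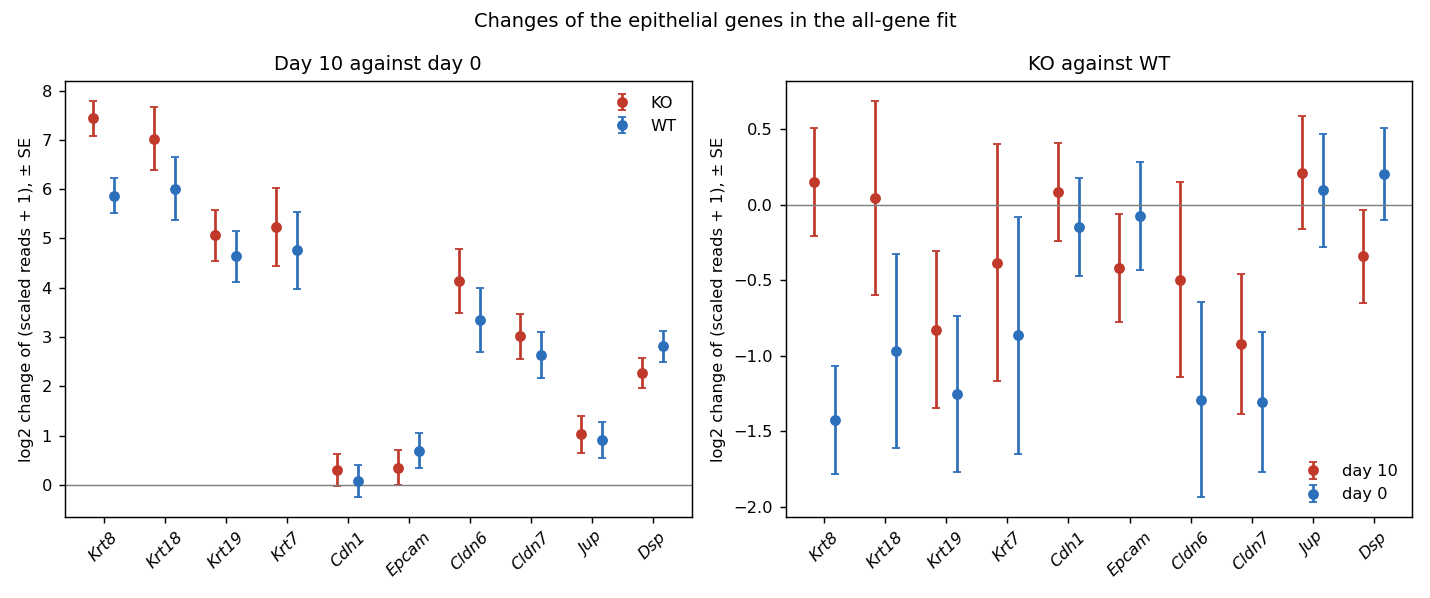
Log2 differences of (scaled reads + 1) with their standard errors in the all-gene limma fit, for day 10 against day 0 (left; KO and WT) and for KO against WT (right; day 10 and day 0). The left panel runs from 7.43 for Krt8 in KO to 0.07 for Cdh1 in WT, and the right panel reaches -1.42 for Krt8 at day 0, where no difference passed the adjusted test.

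The other genes of these structures were counted in 7 lists with 100 tested genes. Day 10 against day 0 gave 16 higher and 5 lower in KO and 10 higher and 4 lower in WT, and KO against WT gave 0 on both days by limma. Over all genes, 6.46% were called lower in KO and 2.4% in WT, beside the 2.43% and 2.02% called higher. Of 11 further desmosome genes, Dsc2, a desmosomal cadherin, was higher at day 10 by 1.93 in KO and 2.02 in WT on the log2 scale (limma adjusted p = 0.0112 and 0.0064). Ppl, a plakin, was higher in KO (2.01), Pkp2, a plaque protein, was higher in WT (1.90), and the list's medians were -0.07 in KO and 0.42 in WT. Of 23 further tight junction genes, Pard6b, a polarity protein, was higher by 2.02 in KO and 2.22 in WT, Inadl by 1.19 and 2.08, and cingulin (Cgn) by 1.38 in KO. None of 12 other keratins was higher. Krt42 differed by -2.04 in KO and -3.22 in WT and Krt17 by -4.06 in WT, both at low levels.

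Among 11 adherens junction genes, Mllt4, the actin-binding afadin, was higher by 0.93 in KO and 1.12 in WT, the nectin Pvrl2 was higher by 1.02 in KO, and the nectin Pvrl1 was lower in KO (-1.13). Among 17 epithelial regulators and surface proteases, the surface protease Prss8 was higher in KO (4.23), while the splicing factor Esrp1 (2.00) and the transcription factor Grhl2 (1.53) were higher in WT. The transcription factors Ehf (-5.02) and Klf5 (-2.47) were lower in KO and Grhl3 (-1.76) was lower in WT. Among 14 genes of the mesenchymal transition, the repressor Snai1 (2.80) and the protease Mmp2 (1.92) were higher in KO and 0 were called in WT. The basement membrane collagen Col4a2 was higher by 1.54 in KO and 1.63 in WT, and the laminin chain Lama1 was lower, at -1.58 in KO and -1.76 in WT. A call in a single line is no test that the lines differ.

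Markers of the cell types these cultures could hold were read beside the keratins. Summed naive stem cell markers were 8948 to 12178 scaled reads in day 10 KO, 3182 to 7081 in day 10 WT and 28083 to 43134 at day 0. Summed trophoblast markers were 1904 to 2230.2 in day 10 KO, 1532 to 2572 in day 10 WT and 676 to 1158 at day 0. Cdx2 was at 234.04 to 463.83 in day 10 KO, 92.64 to 376.79 in day 10 WT and 0 to 21.79 at day 0. In the same order, Hand1 was at 567.26 to 798.22, 219.24 to 1237.45 and 7.07 to 37.58. Tfap2c (476.02 to 525.70, 198.33 to 685.52 and 509.38 to 892.52) and Elf5 (2.70 to 11.90, 2.06 to 15.44 and 7.07 to 43.59) were not higher at day 10. Tpbpa was at 0 in all day 10 libraries but 1. Summed endoderm markers were 615 to 1019 in day 10 KO, 528 to 1388 in day 10 WT and 276 to 638 at day 0, with Foxa2 and Apoa1 at or near 0 throughout. The listed genes did not move together. In the same order, Gata4 was at 337.18 to 550.13, 114.25 to 512.69 and 70.74 to 179.53. Hnf4a was at 11.90 to 19.17, 6.18 to 48.86 and 31.83 to 95.64. Summed fibroblast markers were 2931 to 7979.5 in day 10 KO, 1757 to 5975 in day 10 WT and 740 to 7342 at day 0. Here Col1a1 was at 1880.27 to 5301.70, 543.47 to 4161.20 and 47.82 to 3996.58. Thy1 was lower at day 10, at 39.67 to 86.29, 22.99 to 45.30 and 137.63 to 318.31. Summed stratified epithelium markers were 13.5 to 67.4 in day 10 KO, 47.4 to 506 in day 10 WT and 57.2 to 551 at day 0, most of it Trp63 in the libraries with receptor reads (497.25 in day 10 WT replicate 3 and 498.15 in day 0 KO replicate 1). Its keratins Krt5, Krt1 and Krt10 were at or near 0 at day 10, with at most 11.90, 6.18 and 3.97 scaled reads. Its keratin Krt14 had 15.87, 38.33 and 5.39 in day 10 KO, 4.12 to 6.18 in day 10 WT and 0 to 15.57 at day 0. Summed cardiac markers were 175 to 257 in day 10 KO, 47.4 to 97.7 in day 10 WT and 33.4 to 96.5 at day 0. Of these, Actc1 had 87.27, 210.83 and 153.71 in day 10 KO and 27.79, 4.12 and 0 in day 10 WT. Myh6, Tnnt2 and Nkx2-5 overlapped between the lines at day 10. Summed neural markers were 865 to 1487 in day 10 KO, 658 to 969 in day 10 WT and 931 to 2068 at day 0. Summed blood and endothelium markers were 278 to 496 in day 10 KO, 117 to 1061 in day 10 WT and 375 to 899.8 at day 0. The part of any of these cell types in the keratin levels was not tested.

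Allelic reads were assigned by the authors to the mus or the cas allele, and 13785 genes had at least 100 of them over all libraries. Most genes read as mus, with 57.2% of them above 95% mus, so each gene is set beside its neighbours within 2 Mb. Jup was named for its allele share, which is a description here. Its mus share was 63.6, 54.9 and 60.6% in day 10 KO and 90.3, 87.5 and 89.0% in day 0 KO, from 151 to 206 reads at day 10 and 62 to 1053 at day 0. In WT it was 51.2, 57.6 and 43.0% at day 10 and 88.9, 67.3 and 87.4% at day 0. Day 10 was below day 0 in all libraries of both lines. The low day 0 WT value rests on 37 mus reads of 55 (Wilson 95% interval 54.1 to 78.2%). The means were 59.7 ± 4.44% in day 10 KO, 88.9 ± 1.43% in day 0 KO, 50.6 ± 7.30% in day 10 WT and 81.2 ± 12.1% in day 0 WT (SD, n = 3).

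The 90 neighbours of Jup had a median mus share of 52.6% over all libraries, with quartiles of 49.0 and 58.7%. The day 0 share of Jup was thus above that median, and the day 10 means of 59.7% in KO and 50.6% in WT were closer to it. The shares of the neighbours were not taken by day. Dsp lay among 12 neighbours with a median of 48.4%, and had a mus share of 53.3, 47.7 and 49.2% in day 10 KO and 53.2, 65.8 and 66.0% in day 0 KO. In WT, Dsp had 53.5, 55.2 and 56.1% at day 10 and 72.7, 46.2 and 66.4% at day 0. The days overlapped in both lines, and edgeR's test on the allele counts gave Dsp log2 odds of -0.80 in KO (adjusted p = 0.353) and -0.53 in WT (adjusted p = 0.884). Krt19 was at 73.5, 63.4 and 50.8% in day 10 KO and 63.3, 50.5 and 63.3% in day 10 WT, among neighbours with a median of 53.3%, and had 48 or fewer allelic reads in each day 0 library.

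Krt8 and Krt18 were unlike their neighbours. Krt8 was at 60.01 ± 0.835% mus in day 10 KO and 59.9 ± 3.13% in day 10 WT, from 277 to 963 reads a library. Krt18 was at 68.3 ± 0.813% and 69.8 ± 2.60% (SD, n = 3 for both genes). In day 0 KO replicates 2 and 3 and day 0 WT replicate 3, Krt8 was at 74.3, 78.95 and 72.7% from 35, 19 and 88 reads. Krt18 was there at 89.3, 94.1 and 78.95% from 28, 17 and 76 reads, with a Wilson 95% interval of 73.0 to 98.95% for the 94.1%. These day 0 shares were above the day 10 shares, but they come from deep libraries and all day 10 libraries are shallow. Day and depth cannot be told apart in them. In the shallow day 0 libraries Krt8 was at 100% of 5 reads in KO replicate 1. It was at 14.3% of 7 and 87.5% of 8 in WT replicates 1 and 2. Both genes had 0 to 8 reads in each shallow day 0 library, and neither was tested between the days. Their neighbours had a median of 98.8%. Close by, Eif4b stood at 94.1% from 18516 reads, and Soat2 and Csad at 98.4 and 98.5% from 189 and 391. Of 4488 genes with at least 1000 allelic reads and neighbours above 95% mus, 138 (3.08%) were below 75% mus, as Krt8 and Krt18 were. In the same stretch, Pfdn5 was at 42.8% from 593 reads and Pcbp2 at 83.3%. Reads from near-identical copies elsewhere would count at these genes, and their share was not tested. Krt7 on the same chromosome had only mus reads, 29 in all.

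Cdh1, Epcam and Cldn6 read as mus on both days, as did their surroundings over all libraries. Cdh1 was at 99.3 ± 0.837% in day 10 KO, 99.5 ± 0.266% in day 10 WT, 98.9 ± 0.386% in day 0 KO and 98.9 ± 1.00% in day 0 WT. Epcam stood at 98.6% of 4973 reads in all, Cldn6 at 100% of 926 and Cldn7 at 97.5% of 40. Outside Jup, 3 of the 10 genes had the 10 reads a library that the test between days needs, Cdh1, Epcam and Dsp. Of these, 0 were called, where 1.26% of genes tested were called in KO and 0.0256% in WT. Cdh1 and Epcam lie in stretches that read as mus and had 221 and 69 cas reads in all, so the test could show little there. Before adjustment Dsp alone was under 0.05, in KO. Limma on the log2 ratio of the alleles called 0 of all 7791 genes in KO and 1 of 7802 in WT. Between KO and WT, edgeR called 0 of 7 at day 10, where 0.0913% of genes were called, and 0 of 3 at day 0, where 0% were, with 247 genes at day 0 under an unadjusted 0.05 and 0 by limma. Cdh1 and Epcam are among both sets, and the 7 include Cldn6, which had 0 cas reads.

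**Figure D3:**
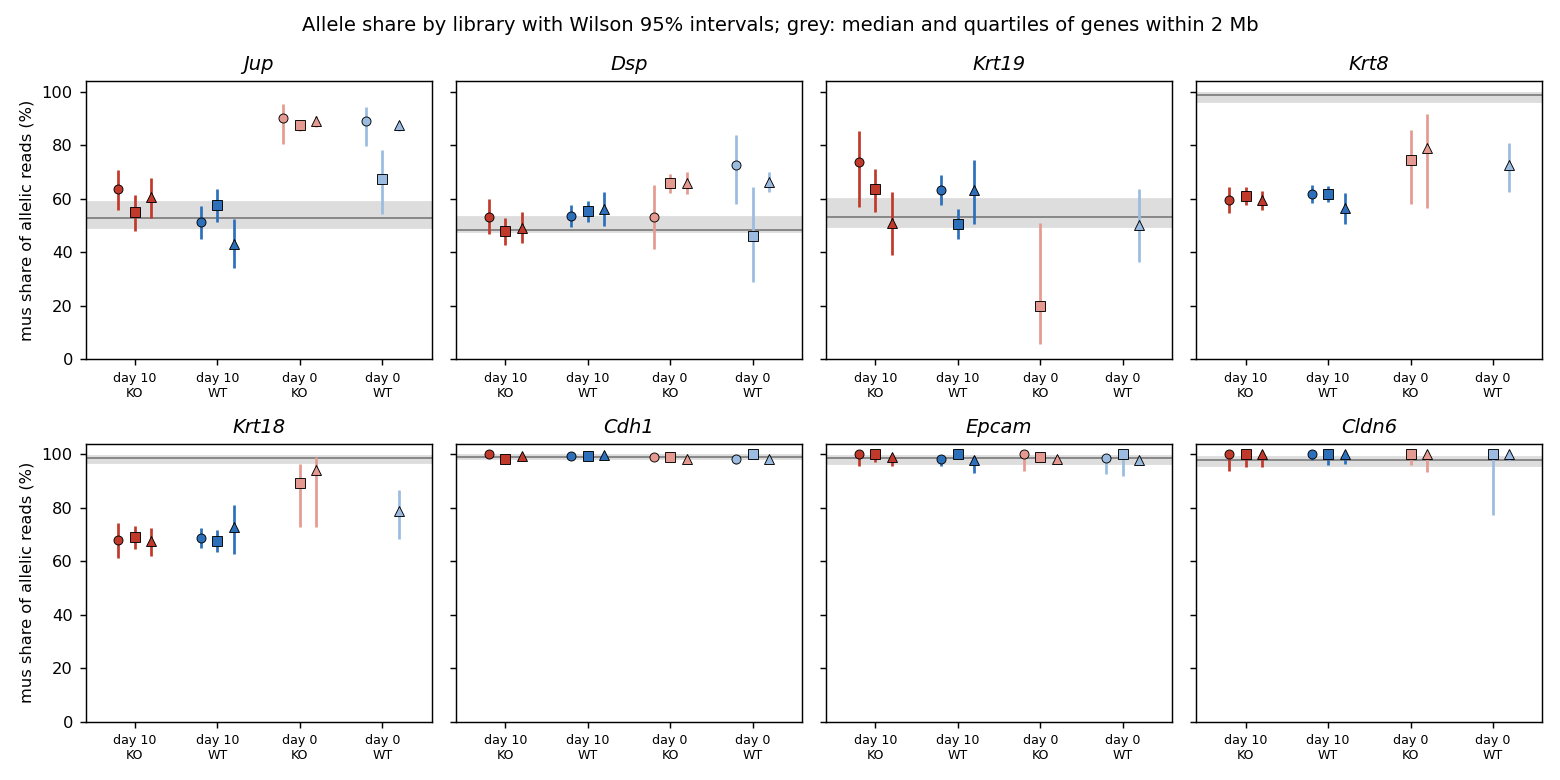
Mus share of the allelic reads in each library with at least 10 such reads, with Wilson 95% intervals, for 8 genes; the grey band and line give the quartiles and the median of the genes within 2 Mb. Jup lies at 87.4 to 90.3% in 5 of the 6 day 0 libraries and at 43.0 to 63.6% at day 10, while Krt8 and Krt18 lie below their neighbours' 98.8% and Cdh1, Epcam and Cldn6 lie on theirs.

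H3K9ac at the promoters was read from the authors' broad peaks, called in each sample separately, so fold enrichments are the authors' and are compared only within a list. In day 10 KO all 10 genes had a peak within 1 kb of the start, where 52.1% of all genes did, and in day 10 WT all 10 had one, where 50.8% did. In day 0 KO 4 of the 10 had a peak (Krt18, Cdh1, Epcam and Jup), against 40% of all genes. In day 0 WT 7 had one, against 49.7%, and Krt8, Krt18 and Jup had none. Krt8 was the only gene with a peak in neither day 0 list, and Cdh1 and Epcam were the only ones with a peak in all 4. With 1 sample a group there is no test, and the lists held 51501, 37310, 37704 and 63050 peaks in day 10 KO, day 10 WT, day 0 KO and day 0 WT.

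Cdh1 had the highest fold of the 10 genes in each list. Its peak had a fold of 5.59 in day 10 KO, at percentile 86.0 of genes with a promoter peak, and of 6.43 in day 10 WT (chr8:109126781-109130375 in mm9), at percentile 93.1. In day 0 KO it had a fold of 3.47, at percentile 66.7, and in day 0 WT 3.69, at percentile 87.6. The Krt8 peak had a fold of 5.08 in day 10 KO (chr15:101832711-101835185) and 4.52 in day 10 WT (chr15:101832828-101837397), at percentiles 78.6 and 66.7. Jup followed Cdh1 in day 10 WT, with a fold of 4.81. Medians over the 10 genes were 3.64 in day 10 KO and 4.17 in day 10 WT, beside 3.80 and 3.89 over all genes with a peak. The day 0 peaks were weak outside Cdh1, with a -log10 q of 0.04 at Krt18 and Jup in day 0 KO and at most 0.76 at the other genes of both lists. Some day 10 KO peaks were weak too, with a -log10 q of 0.58 at Krt7 and 0.83 at Krt19. The lowest in day 10 WT was 1.68, at Dsp.

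**Figure D4:**
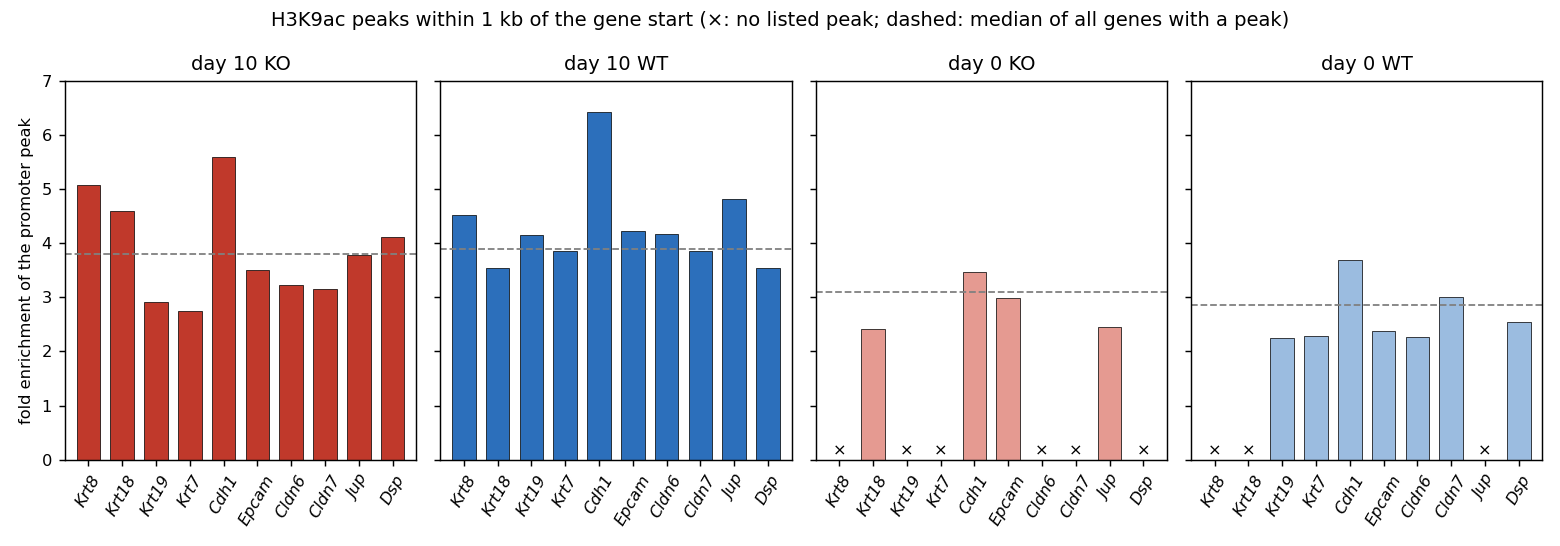
Fold enrichment, as the authors' peak caller gave it, of the strongest H3K9ac peak within 1 kb of the start of each of the 10 genes, in 1 ChIP sample a panel; crosses mark genes with no listed peak and dashed lines the median of all genes with a peak. All 10 genes have a bar in both day 10 panels, 4 have one in day 0 KO and 7 in day 0 WT, and Cdh1 has the tallest bar in each panel.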

How the data were processed

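The submitters' processing notes name TopHat and HOMER for the RNA, Novoalign and MACS2 for the ChIP samples, and mm9. The gene table deposited by the authors holds signal, reads scaled to a common library total. All values (100%) came out as whole multiples of 1 read's worth within 0.006, so whole reads were recovered for count tests as an alternative. Because the values are scaled, they were tested on log2(value + 1) with limma 3.58.1 (R 4.3.3) in a single fit over 12 libraries, for genes above 1 in at least 3 libraries. Deposited counts of mus and cas reads per gene were tested with edgeR 4.0.16 with library and group-by-allele terms, where every library compared held 10 or more of them for the gene. The Wilson intervals given for mus shares are separate from that test and cover counting error only. The peak lists deposited by the authors give fold enrichment and -log10 p and q per peak, called per sample, and list peaks from a -log10 p of 2 up. The fits were tested on simulated data. The genes and the lists of related genes were chosen with earlier results of these data known. Named list genes are up to 4 per list and comparison with the largest change among those called. A gene that this rule names is not reported here. Alternatives were other pseudocounts, filters and scalings, edgeR and DESeq2 1.42.0 on whole reads, a depth term, left-out libraries, a replicate block and stricter peaks. H3K9me2 and input samples were not analysed here.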

Additional observations from a re-analysis of the deposited data

How the results depend on the processing

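Across 1000 repeats of the 40 RNA differences of the 10 genes under the alternatives, 973 moved by less than the spread between replicates and 27 by more, and 0 called differences turned round. Many of the 973 could not move, because leaving out a library of a group not compared keeps the compared means. Dropping the filter, fitting only the compared groups and the replicate block keep them too, so the 973 is no measure of robustness. The number of the 10 genes called between the days was 6 to 8 in KO and 7 to 9 in WT; leaving out each replicate in turn gave 7 to 8 in KO and 7 in WT. The replicate block gave 7 in KO, 7 in WT and 0 between the lines. Same-numbered libraries did not consistently deviate together (18 correlations of -0.578 to 0.579, 5 above 0.1). Day 0 KO replicate 1 and day 10 WT replicate 3, both with receptor reads, were at 0.63. Day 0 KO replicate 2 and day 0 WT replicate 3, both deep, were at 0.60. With such shared features in the correlations, they cannot decide whether the numbers pair the samples. Uncalled differences changed sign under some alternative for Cdh1 in WT between the days, and for 3 genes at day 0 and 5 at day 10 between KO and WT.

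Counts over all genes moved far more. Day 10 against day 0 gave 1834 calls in KO, but 130 with the shallow libraries alone and 5409 without the 2 libraries with receptor reads, and 911 in WT, where those settings gave 566 and 2141. Leaving out each library in turn gave 199 (without day 10 KO replicate 3) to 4496 (without day 10 WT replicate 3) in KO, and 466 (without day 0 WT replicate 3 or day 10 WT replicate 2) to 1389 (without day 0 KO replicate 1) in WT. RLE scaling moved the median of all genes to -0.41 in KO and -0.01 in WT and the higher and lower calls to 785 and 700 in KO and 589 and 399 in WT, against 502 and 1332 in KO and 417 and 494 in WT. Without the receptor libraries Epcam and Jup also passed in WT, at 1.03 and 1.24 (limma adjusted p = 0.0382 and 0.0217).

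Leaving out libraries in turn, the allele test called 0 to 1 of the genes outside Jup between the days in KO. That 1 was Dsp, without day 0 KO replicate 1. At a -log10 q of at least 5, promoter peaks remained at 1 gene in day 10 KO, 1 in day 10 WT (Cdh1 in each), 0 in day 0 KO and 0 in day 0 WT. At a fold of at least 5 they remained at 2 genes in day 10 KO (Krt8 and Cdh1), 1 in day 10 WT (Cdh1), 0 in day 0 KO and 0 in day 0 WT. The shallow day 0 libraries limit low genes. Krt7 rested on 4 reads in day 0 KO replicate 1 and on 6 and 12 in day 0 WT replicates 1 and 2. In day 0 KO replicate 1, Krt18 rested on 3 reads, Cldn6 on 4, Krt8 on 5, Cldn7 on 7 and Krt19 on 9.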
